A study of Homo sapiens with 27 samples.

Results

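Insertion sites of the piggyBat and piggyBac transposon systems, each with its wild-type transposon, were compared in HCT116, a human cell line grown from a colorectal carcinoma. The libraries were chosen by the treatment named in the sample labels, 3 for the wild-type transposon with piggyBat and 3 for the wild-type transposon with piggyBac, of 27 libraries in the series. A site was the base at the transposon edge of a listed peak, taken from the peak's start on the plus strand and from its end minus 3 bases on the minus strand. Each position was counted once per library. The piggyBat libraries held 22957 sites in all and the piggyBac libraries 1205209, of 5365773 over the whole series. In all 6 libraries the cells had received a self-reporting transposon, which transcribes into the flanking DNA so that its position can be read from RNA, and had been selected with puromycin (3 µg/ml) over 2 weeks. The transposon, its transposase and the amplification primers changed together between the groups, so their parts in a difference cannot be told apart, and the labels do not say whether replicates were separate cultures.

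piggyBac, first found in a moth, and piggyBat, from a bat genome, are related cut-and-paste DNA transposons. Their transposases cut the element out of one place and join it into a TTAA target, which is duplicated at the new site. piggyBac is known to insert more often near transcription start sites and in open, active chromatin than chance would give, through contacts with chromatin proteins that also mark enhancers. Insertions can be oriented either way in a gene, and where they land decides whether they are likely to disturb it.

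The groups differed in depth. The total given for each list, taken here as mapped reads, was 147599, 142666 and 179740 in piggyBat replicates 1, 2 and 3 and 9532926, 8204478 and 9454727 in piggyBac. Sites numbered 7182, 6902 and 8873 in piggyBat and 437446, 346918 and 420845 in piggyBac. The median peak height, the largest coverage in a peak, was 7 in each piggyBat library and 11 to 13 in piggyBac. Shares of sites are therefore compared, and each share was also taken over the 6902 tallest sites of each library, the number in the smallest one. That selection kept piggyBac peaks of height 79 or more. piggyBat replicates 1 and 3 listed 3772 of the same positions, 52.5% of the sites of replicate 1 and 42.5% of those of replicate 3. Of the 3666 listed on 1 strand in each library, 99.3% were on the same strand. Replicate 2 shared 663 positions with replicate 1 and 759 with replicate 3. Results are given with all 3 replicates, and none of the share measures below changed its direction with replicates 1 and 3 averaged into 1. With 3 libraries against 3 the two-sided exact permutation test cannot give less than p = 0.1, and p-values measure only the spread between these libraries, which may be technical.

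The target sequence could be read where a site fell in a promoter, taken as the 250 bases before and 50 bases after a gene start in RefSeq (GRCh38.p14). TTAA stood at 98.8%, 96.3% and 97.0% of such piggyBat sites in replicates 1, 2 and 3, and at 98.2%, 98.0% and 98.2% of such piggyBac sites. The 34961 promoter windows held 28785 TTAA positions, and 46.1% of the windows held at least 1. piggyBat libraries listed 185 of these positions and piggyBac libraries 4764. Of the 185, 71.4% were also listed by piggyBac, which is 2.77% of the piggyBac positions.

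The sequences below show promoters with a target used in all 3 piggyBat libraries, with the TTAA in capitals, 5′ to 3′ on the strand of the gene. 10 TTAA positions of coding gene promoters were listed in all 3 piggyBat libraries. Each was also in at least 1 piggyBac library, and 5 were in all 3.
ZNF638, chr2:71331532-71331571, plus strand: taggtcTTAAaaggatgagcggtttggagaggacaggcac
ACTR1A, chr10:102502813-102502876, minus strand: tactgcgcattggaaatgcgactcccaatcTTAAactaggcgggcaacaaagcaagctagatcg
PSMB5, chr14:23035061-23035124, minus strand: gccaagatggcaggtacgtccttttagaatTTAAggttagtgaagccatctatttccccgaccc
PSMB5, chr14:23035305-23035368, minus strand: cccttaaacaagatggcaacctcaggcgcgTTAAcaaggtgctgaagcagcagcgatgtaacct
H3C2, chr6:26032190-26032253, minus strand: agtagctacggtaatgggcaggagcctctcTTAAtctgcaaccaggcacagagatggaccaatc
H2BC5, chr6:26158129-26158170, plus strand: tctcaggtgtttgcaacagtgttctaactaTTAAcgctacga
PSMB5, which encodes a catalytic subunit of the proteasome, held 2 of these targets, at different RefSeq starts. H3C2 and H2BC5 are genes of the histone cluster on chromosome 6. At the ZNF638 target, 244 bases before the start, peak heights were 32, 28 and 36 in piggyBat replicates 1, 2 and 3 and 96, 133 and 98 in piggyBac. At the H2BC5 target, 38 bases after the start, heights were 15, 6 and 11 in piggyBat, and piggyBac replicate 3 alone listed it, at 6.

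3 promoter targets were listed by 2 piggyBat libraries, 1 of them replicate 2, and by no piggyBac library. They are shown because they repeated between replicate 2 and another piggyBat library without a listing in the far deeper piggyBac libraries. 6 further targets, not shown, were in piggyBat replicates 1 and 3, which share many positions, and in no piggyBac library.
JAG1, chr20:10674033-10674096, minus strand: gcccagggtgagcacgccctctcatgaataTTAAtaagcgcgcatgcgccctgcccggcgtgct
GLG1, chr16:74607109-74607172, minus strand: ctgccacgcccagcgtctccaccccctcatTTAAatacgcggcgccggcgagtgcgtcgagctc
EPB41L5, chr2:120012973-120013036, plus strand: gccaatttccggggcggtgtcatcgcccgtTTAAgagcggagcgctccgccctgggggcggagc
JAG1 encodes a Notch ligand, and its target lay 67 bases before the start. Heights at these targets were between 5 and 10, close to the smallest height listed, 5. In the other direction, 761 promoter targets were in all 3 piggyBac libraries and in no piggyBat library. The tallest of them with full flanks are given for comparison.
GSTO1, chr10:104254723-104254786, plus strand: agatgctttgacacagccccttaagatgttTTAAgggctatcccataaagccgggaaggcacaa
TENT2, chr5:79612245-79612308, plus strand: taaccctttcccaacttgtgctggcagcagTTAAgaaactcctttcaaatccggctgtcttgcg
CHMP4A, chr14:24213608-24213671, minus strand: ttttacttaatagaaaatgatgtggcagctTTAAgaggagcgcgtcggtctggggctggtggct
At the GSTO1 target piggyBac heights were 189, 189 and 209.

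The bases beside the target differed between the groups. The longer palindrome TTTAAA, the same on both strands, stood at 8.33%, 12.8% and 9.68% of the promoter targets of piggyBat replicates 1, 2 and 3 and at 19.05%, 17.4% and 17.1% of those of piggyBac, against 16.5% of all promoter TTAA. The piggyBat values all lay under the piggyBac values (mean 10.3% ± 2.30 against 17.9% ± 1.04, SD, n = 3, exact permutation p = 0.1). A C followed the target at 26.3% ± 0.960 of piggyBat and 15.0% ± 0.732 of piggyBac targets, read in the direction of the inserted strand (n = 3, exact permutation p = 0.1). These shares rest on 78 to 93 flanks per piggyBat library and 2074 to 2378 per piggyBac library, and replicates 1 and 3 share positions.

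piggyBat sites lay inside coding genes more often than piggyBac sites and seldom in gene deserts. In replicates 1, 2 and 3 of piggyBat, 62.6%, 62.0% and 62.8% of sites fell in protein-coding genes, against 50.8%, 50.3% and 50.5% of the piggyBac sites, while coding genes cover 41.6% of the sequence considered. The groups did not overlap, with means of 62.5% ± 0.381 and 50.5% ± 0.265 (SD, n = 3, exact permutation p = 0.1, adjusted 0.1 over 12 share measures). Sites over 100 kb from any coding gene made up 4.47%, 4.65% and 4.55% in piggyBat and 15.7%, 16.2% and 15.8% in piggyBac, a ratio of 0.286. The ratio was 0.566 at 20 to 50 kb, 0.474 at 50 to 100 kb and 0.478 at 100 to 200 kb from the nearest coding gene, 0.131 at 200 to 500 kb and 0.197 beyond. Between 200 and 500 kb from the nearest coding gene lay 0.806% ± 0.00569 of piggyBat and 6.17% ± 0.123 of piggyBac sites. Sites in noncoding genes alone were 10.1% ± 0.301 and 13.8% ± 0.0909, and sites outside any annotated gene 27.4% ± 0.654 and 35.7% ± 0.176. Each of the 12 share measures separated all 3 piggyBat from all 3 piggyBac libraries at the smallest p, 0.1.

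Libraries of piggyBac with a short transposon, which differ in the transposon but have a depth near that of piggyBat (totals of 179014 to 210694, 9027 to 9212 sites), gave 49.04% ± 0.915 of sites in coding genes and 9.11% ± 0.145 over 100 kb from them (SD, n = 3). The first value was under both groups' wild-type means and the second lay between them.

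Around gene starts both groups had 2 zones of insertion, one just upstream and one inside the gene, with fewer sites at the start itself, and piggyBat was above piggyBac in both zones. Distances are to the nearest of 22131 RefSeq starts, which cover 15811 of 19970 coding genes. Chromosome 8 was left out because the start table used has none there. Within 5 kb of a start lay 30.4%, 28.1% and 29.0% of piggyBat sites and 12.5%, 12.8% and 12.6% of piggyBac sites, a ratio of 2.31. The short transposon with piggyBac gave 20.8% ± 0.697 within 5 kb and 7.95% ± 0.136 within 1 kb, between the wild-type groups, and 3.93% ± 0.152 at 0.5 to 2 kb downstream. Between 0.5 and 0.25 kb upstream piggyBat had 649 ± 79.9 sites per kb per 10000 sites and piggyBac 270.1 ± 15.1. In the first 0.25 kb downstream the values were 184 ± 25.0 and 126 ± 4.95. Between 1 and 2 kb downstream they rose again in piggyBat to 486 ± 30.3, against 154 ± 0.688 in piggyBac, the highest ratio of the zones, 3.16.

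**Figure D1:**
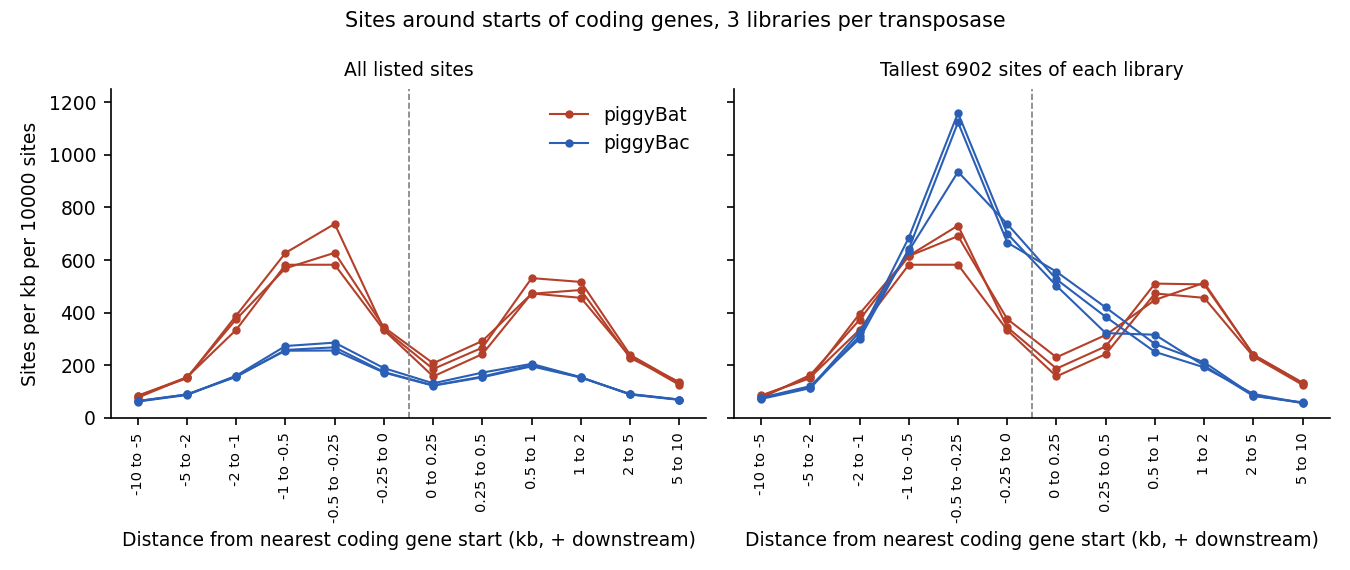
Sites per kb per 10000 sites (y) by distance from the nearest coding gene start in kb (x, bins of unequal width, negative upstream, dashed line at the start), 1 line per library, red for piggyBat and blue for piggyBac. On the left, over all listed sites, piggyBat lies above piggyBac in every bin drawn; on the right, over the tallest 6902 sites of each library, piggyBac is higher from 1 kb upstream to 0.5 kb downstream and piggyBat from 0.5 kb downstream on.

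Among the tallest sites the upstream zone turned around and the downstream zone did not. Over the 6902 tallest sites per library, piggyBac had 1073 ± 120 sites per kb per 10000 between 0.5 and 0.25 kb upstream against 668 ± 77.0 in piggyBat, and 528 ± 26.8 against 192 ± 36.5 in the first 0.25 kb. The share within 1 kb of a start, 9.03% in piggyBat and 4.16% in piggyBac over all sites, became 9.14% and 11.4%. The share 0.5 to 2 kb upstream, 6.63% and 2.90% over all sites, became 6.70% and 6.40% (exact permutation p = 0.3). In contrast the share 0.5 to 2 kb downstream was 7.32% ± 0.457 in piggyBat and 2.54% ± 0.0302 in piggyBac over all sites and 7.31% and 3.42% over the tallest. At height 20 or more, which keeps 494 to 705 piggyBat and 112522 to 121356 piggyBac sites, it was 10.9% and 2.83%. The share in coding genes over the tallest sites was 62.3% and 43.7%, and over 100 kb from genes 4.54% and 10.8%. So the excess of piggyBat inside genes and downstream of starts held in these selections, and its excess close to the start depended on which piggyBac sites were counted.

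**Figure D2:**
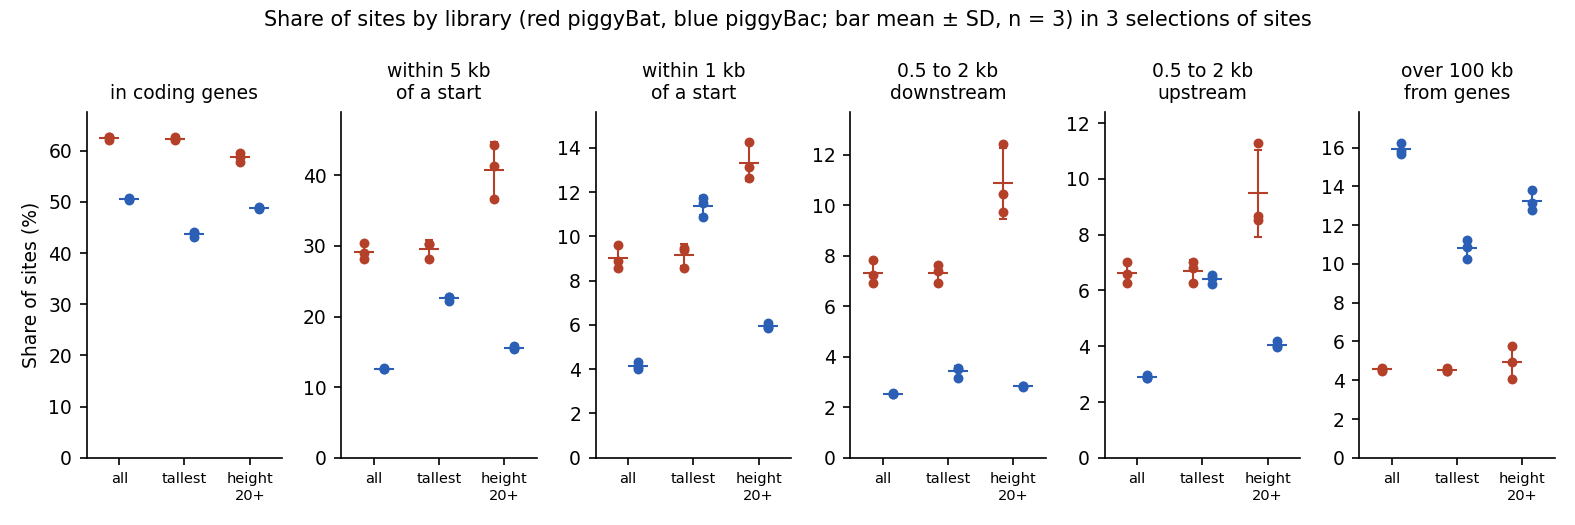
Share of sites in percent (y) in 6 locations, 1 point per library with mean ± SD (n = 3), red for piggyBat and blue for piggyBac, over all listed sites, the tallest 6902 sites per library and sites of height 20 or more (x). The colours keep their order in 4 of the 6 panels, while within 1 kb of a start the tallest piggyBac sites are above piggyBat and 0.5 to 2 kb upstream they overlap it.

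Of the sites within 5 kb of a start, 53.2%, 53.1% and 52.9% lay downstream of it in piggyBat replicates 1, 2 and 3 and 47.3%, 47.0% and 47.2% in piggyBac (over the tallest sites 52.8% and 36.6%). The share within 5 kb also rose with peak height in both groups. From heights of 5 and 6 to heights of 50 or more it went from 26.1% ± 1.86 to 50.04% ± 6.66 in piggyBat and from 10.7% ± 0.308 to 19.6% ± 0.702 in piggyBac. The last piggyBat class held 35 to 45 sites per library.

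Orientation in coding genes differed too. The insertion ran in the sense of the gene at 41.3%, 40.5% and 40.0% of piggyBat sites and at 35.4%, 36.4% and 34.9% of piggyBac sites in coding genes (exact permutation p = 0.1). A read from a self-reporting transposon depends on a transcript that runs out of the element, so a share of orientations is a share of those detected. The short transposon with piggyBac gave 40.9% ± 1.54, and its difference from piggyBat was -0.23 percentage points (exact permutation p = 0.9). Near starts the gap depended on the zone. Between 0.5 and 2 kb downstream 54.6% ± 2.59 of piggyBat and 37.4% ± 1.46 of piggyBac sites were in sense. Within 1 kb upstream the order was the reverse, 23.9% ± 1.17 and 32.4% ± 0.487. From 1 to 5 kb upstream the gap was narrower than over whole genes, 51.4% ± 0.960 and 48.8% ± 0.631. At height 20 or more the sense shares over whole genes were 48.997% and 33.3%. A position listed on both strands was rarer in piggyBat, 1.057% ± 0.0818 against 5.54% ± 0.128, and the short transposon gave 1.02% ± 0.120. After peak heights were thinned to the smallest total, piggyBac kept 288 to 521 sites and no such position.

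piggyBat sites were more frequent in short genes and in the first part of long ones. Coding genes under 20 kb held 8.84%, 8.10% and 8.45% of all piggyBat sites and 2.80%, 2.77% and 2.78% of piggyBac sites, a ratio of 3.04. Genes of 500 kb and over held 1.95%, 2.19% and 1.88% against 6.26%, 6.28% and 6.28%, a ratio of 0.320. The ratio fell over the 6 length classes, from 1.98 at 20 to 50 kb through 1.51, 1.25 and 0.768. Within genes of 50 kb and over, the first of 10 equal parts from the start took 22.2% ± 2.03 of piggyBat and 14.1% ± 0.124 of piggyBac sites, and each of parts 5 to 9 took a smaller share in piggyBat without overlap.

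Chromosomes rich in genes gained and chromosomes poor in genes lost. Chromosome 19 took 4.66%, 4.74% and 4.69% of piggyBat sites and 1.33%, 1.33% and 1.34% of piggyBac sites, a ratio of 3.52. Chromosomes 22, 17 and 16 followed with ratios of 2.18, 2.13 and 1.91, and chromosome 13 had the lowest, 0.472. On 22 of 23 chromosomes the groups did not overlap, 11 with a higher and 11 with a lower share in piggyBat, and on the X chromosome they overlapped. Across the 23 chromosomes the ratio went with coding genes per Mb (Pearson r = 0.94, Spearman rho = 0.95), a description in which all chromosomes come from the same 6 libraries.

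**Figure D3:**
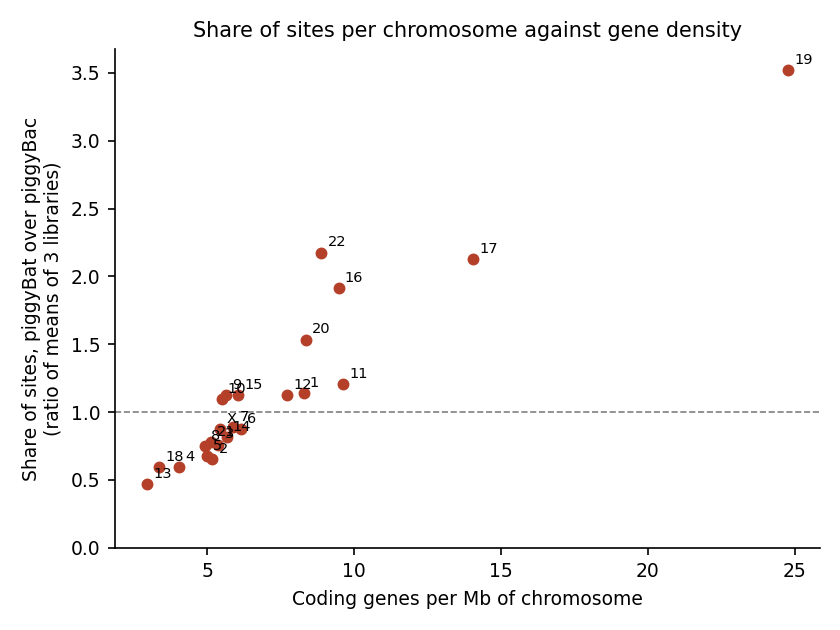
Ratio of the share of sites in piggyBat to that in piggyBac (y, means of 3 libraries) against coding genes per Mb (x), 1 labelled point per chromosome. Chromosome 19, with the most genes per Mb, is at 3.52 and chromosome 13, with the fewest, at 0.472; the dashed line marks equal shares.

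Single genes were compared by their sites per 10000 sites of the library. Of 16590 coding genes with a site in any of the 6 libraries, 181 averaged at least 3 per 10000 and were tested with limma on log2(sites per 10000 + 1). piggyBat was higher in 117 of them (64.6% of those tested) and lower in 20 (11.0%) at an adjusted p under 0.05, and the median difference over the 181 was 1.23 (log2). 160 of the 181 reached the minimum by their piggyBat mean and 77 by their piggyBac mean, so genes that are high in piggyBat had more chance to be tested and the balance of calls is partly set by the filter. With each library centred on its median over the tested genes, 60 were higher and 50 lower.

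The most used piggyBat genes were PCDH7, VMP1, TCF7L2, VTI1A, EZR, PALLD, MET, HMGA2, NSMCE2 and DCBLD2. PCDH7, a protocadherin, was first in both groups, with 66.8, 56.5 and 78.9 sites per 10000 in piggyBat and 33.2, 37.1 and 32.8 in piggyBac. Over the tallest sites its order turned, with a log2 difference of -1.47, and the same held for VTI1A (-0.71), PALLD (-0.48) and NSMCE2 (-1.06). TCF7L2, the main partner of beta-catenin in transcription in the gut, had 33.4, 24.6 and 32.7 in piggyBat and 3.63, 4.01 and 3.71 in piggyBac, a 7.995-fold ratio (log2 difference on the scale of the test 2.70 ± 0.13 SE, limma adjusted p = 1.1e-05). MET, the receptor of hepatocyte growth factor, had 26.5, 27.5 and 30.4 against 4.23, 4.47 and 4.30, and its groups were far apart. VMP1, a membrane protein of autophagy whose gene hosts the miR-21 locus, had 40.4, 26.1 and 30.4 against 4.18, 4.81 and 4.02 (2.62 ± 0.17), and over the tallest sites the difference was 0.43 with an adjusted p of 0.123.

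The largest rises were in genes with few piggyBac sites, several of them short. They were EZR, PHLDA1, RCC1, EEF1A1, ANXA2, KITLG, LOC124905135, EREG, EIF1, BCL2L1, DCBLD2 and ERRFI1. All of them had piggyBac means under 3 per 10000 and reached the minimum for a test through piggyBat alone. A gene with few piggyBac sites could be tested only if it was high in piggyBat, so these calls add nothing to the counts of sites. EZR, which encodes ezrin and links membranes to actin, had 27.8, 33.3 and 27.05 sites per 10000 in piggyBat and 1.71, 1.67 and 1.85 in piggyBac, a 16.8-fold ratio (3.46 ± 0.10, limma adjusted p = 2.3e-06). PHLDA1, an early growth factor response gene of 6.33 kb, had 12.5, 10.1 and 13.5 against 0.320, 0.317 and 0.214. EEF1A1, the elongation factor that carries tRNAs to the ribosome, had 9, 6 and 6 sites in the piggyBat libraries and 8, 6 and 7 in the far larger piggyBac ones. EIF1, a translation initiation factor, had 5 sites in each piggyBat library and 3, 1 and 3 in piggyBac. EREG, a ligand of the EGF receptor, had 16.7, 14.5 and 12.4 against 1.01, 1.04 and 1.33. ERRFI1, a feedback inhibitor of that receptor, had 8.35, 11.6 and 6.76 against 0.503, 0.490 and 0.499. KITLG, the ligand of the KIT receptor, had 22.3, 27.5 and 23.7 against 2.22, 2.19 and 2.38. BCL2L1, an inhibitor of apoptosis, had 13.9, 24.6 and 12.4 against 1.60, 1.499 and 1.21. For EREG the direction turned at height 20 or more (-0.069, adjusted p = 0.997), while for the other 11 genes no alternative run turned it. At that height EIF1 (3.18, adjusted p = 0.415) and BCL2L1 (1.36, adjusted p = 0.691) did not pass.

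The largest falls included the long genes MSRB3, NAALADL2, INPP4B, SYT1, TENM3, CDKAL1, PRKACB, RAD51B, SHROOM3, PSD3 and MPP7, of which the shortest was 160 kb. All of these but RAD51B and MPP7 had piggyBat means under 3 per 10000. They reached the minimum for a test through piggyBac alone, so their calls add nothing to the counts of sites. SHROOM3 did not pass after random thinning (adjusted p = 0.198), PSD3 after that or over the tallest sites (0.139 and 0.123), and MPP7 at height 20 or more (0.504). MSRB3, a methionine sulfoxide reductase, had no site in any piggyBat library. The floor of 3 sites over the 22957 sites of the group is 1.31 per 10000. Against it, MSRB3, with 6.31, 7.58 and 6.87 per 10000 in piggyBac, was at least 5.29-fold lower in piggyBat. The floor counts positions shared between replicates once per library, and over the 18271 distinct positions the bound would be smaller. NAALADL2 had 1, 0 and 0 piggyBat sites against 5.62, 6.31 and 5.68 per 10000 in piggyBac. RAD51B, a homologous recombination gene, had 4.18, 5.80 and 3.38 against 10.8, 10.6 and 10.8 (log2 difference -1.13 ± 0.17, limma adjusted p = 0.00096). ZBTB20, the second of the piggyBac genes by level and a transcriptional repressor, had 11.1, 8.69 and 6.76 against 16.6, 17.4 and 16.8. Among the other piggyBac genes of high level, PPP3CA, with 20.9, 15.9 and 21.4 against 12.8, 13.1 and 12.97, was higher in piggyBat but lower over the tallest sites (-0.96) and after centring (-0.56).

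**Figure D4:**
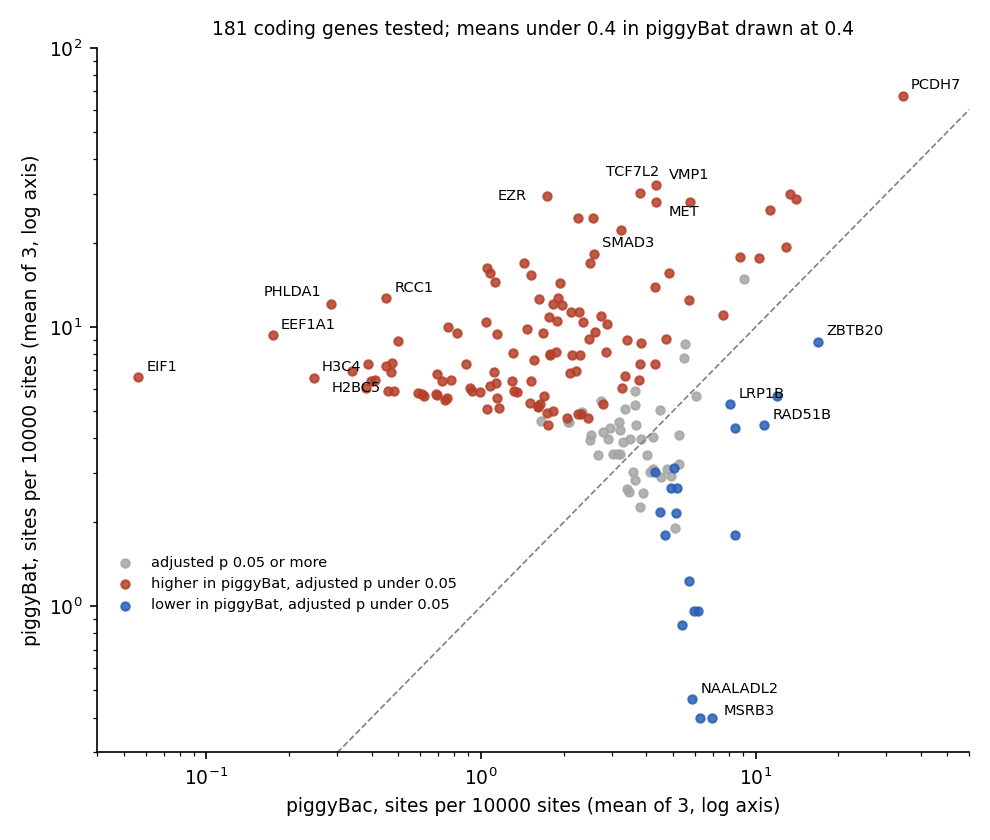
Mean sites per 10000 sites in piggyBat (y) against piggyBac (x), both on log axes, for the 181 coding genes tested, with piggyBat means under 0.4 drawn at 0.4. Red genes were higher and blue genes lower in piggyBat at a limma adjusted p under 0.05, grey ones did not pass, and the dashed line marks equal values; EIF1, EEF1A1, H3C4 and PHLDA1 lie farthest to the left and MSRB3 at the bottom.

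Gene lists were described by the distinct sites in all their members, with no test of a list as a whole. Histone genes, which package DNA and lie in dense clusters, held 27, 18 and 30 piggyBat sites, 37.6, 26.1 and 33.8 per 10000, against 3.27, 3.401 and 3.47 in piggyBac, a ratio of 9.61. H3C4 and H2BC5 were the 2 members tested, with log2 differences of 2.59 ± 0.16 and 2.56 ± 0.15. Both reached the level for a test through piggyBat alone, so their calls add nothing to the count of sites, and neither passed at height 20 or more (adjusted p = 0.416 each). Without H2BC5, the member with most piggyBat sites, the list held 25.5 ± 4.67 against 3.04 ± 0.0796. Ribosomal protein genes, 85 in the table and 5.04 kb long at the median, held 55.7, 43.5 and 40.6 against 6.29, 6.80 and 6.70, a ratio of 7.06. None of them reached the level needed for a test. RPL13 and RPL4 had 22.3-fold and 22.5-fold ratios from 4, 2 and 3 and from 3, 1 and 3 piggyBat sites. HOX genes, which set position along the body axis, held 13.9, 13.04 and 13.5 against 2.72, 2.80 and 2.69, a ratio of 4.94. Early response genes held 7.74 ± 1.11 against 2.68 ± 0.0548, with KLF6 at 2.78, 2.90 and 3.38 against 0.183, 0.288 and 0.356. Without KLF6 the list held 4.72 ± 0.797 against 2.41 ± 0.0690. ATF3 had no piggyBat site and 1.03 ± 0.0727 per 10000 in piggyBac, a level under the floor of 1.31.

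In the signalling lists of this tumour type the difference in sites inside the genes lay mostly in 1 gene each. Growth factor and RAS-PI3K genes held 37.6, 55.1 and 49.6 per 10000 against 17.1, 16.1 and 17.0. MET held 19, 19 and 27 of their 27, 38 and 44 piggyBat sites, and without it the list held 11.1, 27.5 and 19.2 against 12.9, 11.6 and 12.7, which overlap. MET was the 1 member tested and was higher (log2 difference 2.45 ± 0.08, limma adjusted p = 2.3e-06). SPRY4, a feedback inhibitor of RAS signalling, had 2, 3 and 2 piggyBat sites and 5, 1 and 5 piggyBac sites. Wnt pathway genes held 48.7, 58.0 and 49.6 against 19.8, 21.0 and 19.7. Without TCF7L2 they held 15.3, 33.3 and 16.9 against 16.1, 17.01 and 15.97, which overlap. Of 3 members tested, TCF7L2 and RNF43 were higher, a share near the 64.6% of all genes tested, and TNIK, with -1.38 ± 0.58, did not pass (adjusted p = 0.0677). RNF43, a ubiquitin ligase that removes Wnt receptors, had 6.96, 4.35 and 3.38 against 2.13, 2.28 and 2.38, and its adjusted p of 0.0219 rose to between 0.0624 and 0.0749 without any 1 of the piggyBac replicates 1, 2 and 3. Tumour suppressors held 28.6 ± 5.38 against 12.04 ± 0.386, and SMAD3, a transducer of TGF-beta signals and the member tested, had 18.1, 18.8 and 18.03 against 2.79, 2.57 and 2.38. Without SMAD3 the list held 6.96, 15.9 and 7.89 against 9.05, 9.92 and 9.41, which overlap. Oncogenes outside those pathways held 46.6 ± 6.22 against 27.1 ± 1.03. Without BCL2L1 they held 30.6, 29.0 and 29.3 against 24.7, 26.8 and 25.5, a smaller gap without overlap. For the 3 tested members of the oncogene list, BCL2L1, TEAD1 and WWTR1, the calls were all higher, beside 64.6% of all genes tested, but that of WWTR1 (adjusted p = 0.0397) was lost without any 1 of piggyBat replicates 1 and 3 or piggyBac replicates 1, 2 and 3 (0.0717 to 0.117). The medians of tested members were 0.81 for the Wnt list and 1.53 for the oncogene list, beside 1.23 over all genes tested. BCL2L1, TEAD1, RNF43 and SMAD3 had piggyBac means under 3 per 10000 and reached the level for a test through piggyBat alone. Their calls therefore add nothing to the counts of sites.

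The lists of giant genes held fewer sites in piggyBat once PCDH7 was set aside. 23 genes of common fragile sites, very long genes that break under replication stress, held 13, 9 and 10 piggyBat sites, 18.1, 13.04 and 11.3 per 10000, against 64.8, 65.6 and 65.4 in piggyBac, a ratio of 0.217. Among the members tested, NAALADL2 and LRP1B were lower, beside 11.0% of all genes tested, and PTPRG did not pass (0.41 ± 0.19, adjusted p = 0.0883). NAALADL2 reached the level for a test through piggyBac alone, so its call adds nothing to the count of sites. LRP1B (adjusted p = 0.0324) did not pass without any 1 of piggyBat replicates 1 and 3 or piggyBac replicates 1, 2 and 3 (0.076 to 0.101), and at height 20 or more its sign turned (1.25). Long neuronal genes held 70.1 ± 10.9 against 67.0 ± 2.78, which overlap, and 48, 39 and 70 of their 50, 41 and 72 piggyBat sites lay in PCDH7. Without it the list held 2 sites in each piggyBat library, 2.65 ± 0.344 per 10000, against 32.7 ± 1.13 in piggyBac. ERBB4, a receptor tyrosine kinase gene of 1163 kb, had no piggyBat site and 4.82, 4.96 and 5.09 per 10000 in piggyBac. Against the floor used for MSRB3, and with the same limit, it was at least 3.79-fold lower in piggyBat. The 5q31 protocadherin clusters had no piggyBat site and 0.823 ± 0.0751 per 10000 in piggyBac, a level under that floor.

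The remaining lists were mixed, with gaps smaller than those of the histone and ribosomal protein genes. Zinc finger genes, 509 in the table, held 51.5, 50.7 and 53.0 against 48.8, 49.1 and 48.4, a ratio of 1.062 without overlap. Without ZNF503 that list held 48.7, 47.8 and 50.7 against 48.1, 48.7 and 47.7, which overlap. Gut epithelial transcription factors held 5.57, 8.69 and 12.4 against 8.98, 8.68 and 9.46, chromatin readers 21.1 ± 4.46 against 15.8 ± 0.680, and both overlapped. Epithelial adhesion genes and keratins held 11.2 ± 4.88 against 5.20 ± 0.0516. Olfactory receptor genes held 13.8 ± 4.76 against 5.80 ± 0.428, but 12, 5 and 11 of their 13, 6 and 13 piggyBat sites lay in OR51B5, a gene of 165 kb, and without it the list held 3.48 ± 0.646 against 4.24 ± 0.317, which overlap. Within 5 kb of olfactory receptor starts the order was the reverse, 1.38 ± 0.179 against 5.38 ± 0.425, but the piggyBat value rested on 1 site in each library. Near histone and ribosomal protein starts the values were 102 ± 13.03 against 12.5 ± 0.395 and 56.3 ± 10.3 against 8.57 ± 0.547. Near zinc finger starts they were 43.5 ± 8.03 against 22.4 ± 0.438. They were 19.5 ± 4.77 against 3.19 ± 0.0404 near growth factor and RAS-PI3K starts and 14.8 ± 4.33 against 3.95 ± 0.256 near Wnt pathway starts. Near starts of gut epithelial, fragile site, long neuronal and chromatin reader genes the groups overlapped.

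**Figure D5:**
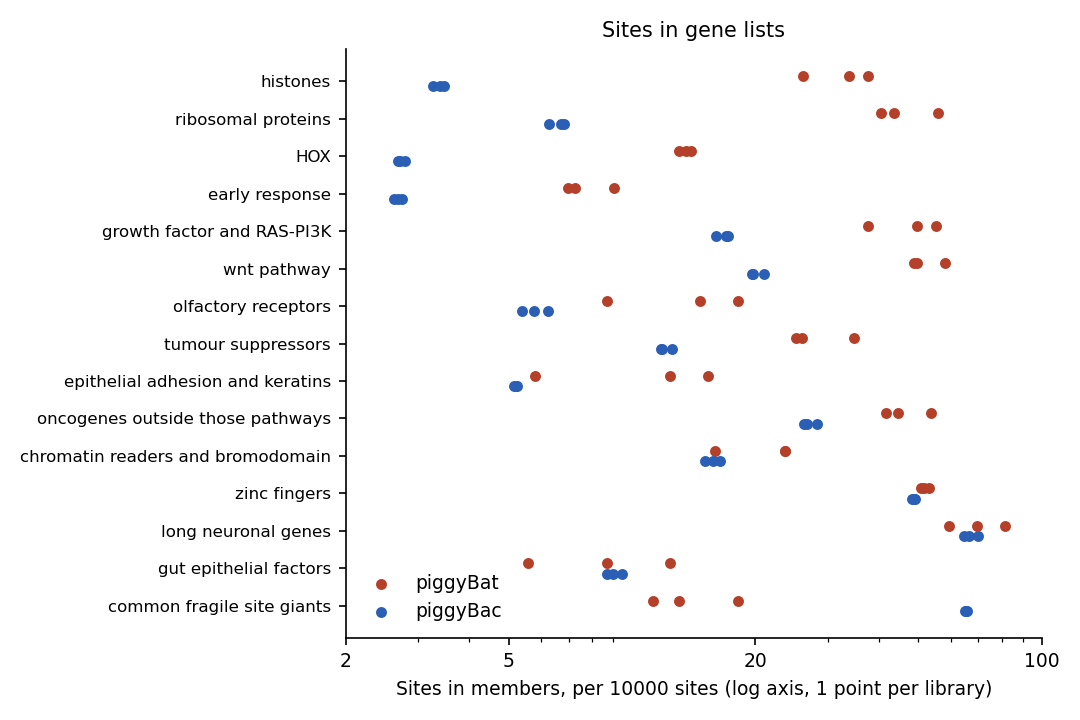
Distinct sites in the members of each gene list per 10000 sites (x, log axis), 1 point per library, red for piggyBat and blue for piggyBac, ordered by the ratio of means. Histone, ribosomal protein and HOX genes show the widest gaps to the right and common fragile site genes the gap to the left; the 5q31 protocadherins, with no piggyBat site, are left out.

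Among noncoding genes, piggyBat sites were most frequent in a few loci of long noncoding RNAs, several of them hosts of microRNAs. These loci were chosen by level after their values were seen and have no test of their own. LINC-PINT held 92, 65 and 100 piggyBat sites, 128, 94.2 and 113 per 10000, against 9.21, 9.71 and 9.29 in piggyBac, an 11.9-fold ratio. MIR100HG held 38.2 ± 3.00 against 8.83 ± 0.284, MIR31HG 24.1 ± 3.32 against 2.14 ± 0.260, and MIR222HG 20.2 ± 3.02 against 1.10 ± 0.152. NEAT1, the scaffold of nuclear paraspeckles, held 6, 8 and 4 piggyBat sites and 16, 12 and 14 piggyBac sites. Not every such locus was high in piggyBat, since MSRB3-AS1 held 1, 0 and 3 sites against 6.95, 7.47 and 7.18 per 10000. In all, 2713 ± 24.5 coding genes but 3969 ± 74.2 windows of 100 kb were hit by 6902 random piggyBat sites, against 2539 ± 37.2 genes and 5536 ± 24.0 windows for piggyBac (exact permutation p = 0.1 each).

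In windows of 1 Mb, piggyBat was higher in 353 of 1178 tested (30.0%) and lower in 206 (17.5%) at a limma adjusted p under 0.05. With a minimum mean of 1.5 the balance turned, to 361 higher and 653 lower, as it did at height 20 or more, to 122 higher and 146 lower. The highest window, 130 to 131 Mb of chromosome 7, held 109 ± 17.7 sites per 10000 against 13.4 ± 0.560, and 242 of its piggyBat sites lay in LINC-PINT. The next 2 were 26 to 27 Mb of chromosome 6, with the histone cluster, at 79.4 ± 10.04 against 13.9 ± 0.198, and 21 to 22 Mb of chromosome 9, with MIR31HG, at 76.0 ± 13.2 against 18.1 ± 0.930. The lowest included 218 to 219 Mb of chromosome 1 and 60 to 61 Mb of chromosome 10, which had no piggyBat site and 6.43 ± 0.352 and 6.18 ± 0.277 in piggyBac. The densest 1% of 100-kb windows held 28.0% ± 1.01 of piggyBat and 13.3% ± 0.482 of piggyBac sites at equal random numbers, but 28.4% and 31.5% over the tallest. Without piggyBac replicate 1, 2 or 3 the number of windows called dropped from 559 to 350, 349 and 345, and without piggyBat replicate 2 it was 735.

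Positions that repeated across the piggyBat libraries were mostly also listed by piggyBac. The 3 piggyBat libraries listed 18271 distinct positions, of which 508 were in all 3. Of these 508, 78.9% were in a piggyBac library, against 41.3% of the 14093 positions seen in 1 piggyBat library and 47.7% of the 3264 shared by replicates 1 and 3 alone. Where replicate 2 shared a position with 1 other replicate, 74.9% of 406 positions were in a piggyBac library. Strand was compared for shared positions listed on 1 strand in each library. These were 596 of 663 for piggyBat replicates 1 and 2 and 58087 of 80195 for piggyBac replicates 1 and 2. The strand was the same in 91.4% of cases between piggyBat replicates 1 and 2 and 90.7% between 2 and 3. Between piggyBac replicates this share was 75.4% to 77.0%, and between the groups 69.4% to 72.0%. Between piggyBat and the short transposon with piggyBac, of similar depth, it was 79.2% to 86.8%. The part of depth in these values was not tested. Of the positions in all 3 piggyBat libraries, 39.7% were within 5 kb of a coding gene start, against 26.0% of those in 1 library.

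The tallest position of all 3 piggyBat libraries lay between coding genes on chromosome 1 at 16905443, with heights of 246, 225 and 246 and of 248, 188 and 176 in piggyBac. It was listed in 22 of the 27 libraries of the series. A position in DCBLD2, 1743 bases after its start, had heights of 65, 35 and 74 in piggyBat and was in no wild-type piggyBac library. The same held for positions in VMP1 (39, 65 and 47), RCC1 (51, 44 and 44) and TGIF1 (42, 36 and 48). The 4 positions were listed in 7, 6, 5 and 3 of the 27 libraries.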

How the data were processed

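The authors deposited 1 peak list per library, without header, with a sum of coverage and a largest coverage (height) per peak. Both are signal values, deposited without scaling, and no listed height was under 5. HISAT2 2.2.1.0 and cutadapt 3.4 are named with builds hg38 and GRCh38.p5, per the submitters' processing notes. The peak caller and any removal of duplicates are not given in the sources used here, and the constant in the last column was taken as the mapped total. Sites on chromosomes 1 to 22 and X were placed on RefSeq genes (GRCh38.p14). Heights come from reads without molecular identifiers. Start and strand measures left out chromosome 8. Of 19970 coding genes 15811 had a listed start, and the others gave neither a start nor a strand. No genome sequence was used.

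Shares of sites were compared with two-sided exact permutation tests over libraries and Benjamini-Hochberg adjustment over 12 measures, 4 of them added after seeing the data. Genes and windows were tested with limma 3.58.1 (R 4.3.3, eBayes with trend) on log2(sites per 10000 + 1), minimum mean 3, after a test on simulated data. Fold ratios are of means without the pseudocount. Named genes are the 10 highest in each group, the 12 largest called differences without overlap in each direction, and up to 4 highest members per gene list. Other named positions, noncoding loci and windows were chosen after seeing values. Members, lists and tests were chosen with earlier results of these data known. 1 gene that the naming rule selects is not reported here.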

Additional observations from a re-analysis of the deposited data

How the results depend on the processing

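The 12 share measures kept their direction under every alternative run, with these exceptions. Over the tallest sites of equal number the difference, piggyBat minus piggyBac in percentage points, was -2.24 within 1 kb of a start and -3.10 in the densest 1% of windows. With heights thinned to the smallest total it was -1.35 within 1 kb (exact permutation p = 0.3) and 0.980 for positions in both orientations, where 0 of 288 to 521 piggyBac sites remained. For the densest windows that thinning gives no comparison, since 100% of sites in all 6 libraries then lay in the windows counted.

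Genes called, 137, became 372 at a minimum mean of 1.5, 49 at 6 and 57 at height 20 or more, and 124 to 150 with 1 library left out. Windows called, 559, became 1014 at a minimum of 1.5, 323 at 6, 272 over the tallest sites, 313 after random thinning, 268 at height 20 or more, and 345 to 735 with 1 library left out. At a minimum of 1.5, 361 windows were higher and 653 lower, at 6 they were 298 and 25, and at height 20 or more 122 and 146. For genes over the tallest sites the split was 81 higher and 46 lower.

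The sign of a gene turned in 26 of 743 values over 46 named genes. Centring moves all genes of a library alike, so it turned smaller positive differences and left larger ones positive. VTI1A, at 1.11 before centring, was still positive after it, at 0.0097. After centring the log2 difference was -0.15 for PCDH7, -0.12 for PALLD, -0.56 for PPP3CA, -0.41 for PHLDB2, -0.51 for PDE4B, -0.29 for RNF43, -0.48 for WWTR1 and -0.68 for PTPRG. Over the tallest sites it was -1.47 for PCDH7, -0.71 for VTI1A, -0.48 for PALLD, -1.06 for NSMCE2, -0.96 for PPP3CA, -1.40 for PHLDB2, -0.84 for PDE4B, -0.93 for WWTR1 and 0.21 for LRP1B. At height 20 or more it was -1.01 for VTI1A, -1.24 for PALLD, -1.29 for NSMCE2, -1.14 for PPP3CA, -3.76 for PDE4B, -0.069 for EREG, -0.52 for RNF43, -1.29 for WWTR1 and 1.25 for LRP1B. The cause was not tested.

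Replicate numbers did not pair the libraries (correlations of same-numbered deviations -0.082 to 0.035). With the replicate number as a block, 135 genes and 512 windows were called, the share in coding genes differed by 11.9 points (exact sign-flip p = 0.25, the smallest possible), WWTR1 was lost and TNIK passed (-1.38, adjusted p = 0.0398). The low depth of piggyBat limits single genes to a few sites per library, and heights of matched rank were not of matched height.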
